A study of Mus musculus with 6 samples.

Results

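The globin genes and a pair of erythroid genes, 10 of the 59484 features in the table, were examined in polyA+ RNA of mouse cerebral cortex at embryonic day 18.5 (E18.5). They were taken by name: *Hba-a1*, *Hba-a2*, *Hba-x*, *Hbb-y*, *Alas2* and *Slc4a1*, and every other symbol that starts with Hba- or Hbb-, which added *Hbb-bs*, *Hbb-bt*, *Hbb-bh1* and *Hbb-bh2*. RNA was sequenced from the whole cortex of 3 wild-type embryos (Wt1 to Wt3, here WT1 to WT3) and of 3 embryos labelled knocked out for both Sam68 and Slm2 (Dko1 to Dko3, here dKO1 to dKO3). Both genes encode related RNA-binding proteins with a role in splicing, and the mice were C57BL/6 wild-type and knockout animals; by the study's account, double knockouts came from intercrosses of Sam68+/-:Slm2-/- parents, which cannot give wild-type littermates. The labels do not say whether the libraries of a genotype came from separate litters, so the p-values measure the spread between these samples. The values are read counts divided by a size factor of the library, called normalized counts below.

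Hemoglobin is the oxygen carrier of red blood cells and is built from a pair of alpha-like and a pair of beta-like globin chains. In the mouse, primitive red cells of the yolk sac make embryonic chains, and definitive red cells of the fetal liver and later of the bone marrow make adult-type chains, so that adult-type globins prevail late in gestation. In brain tissue, globin RNA is used as a measure of the blood that remains in the vessels, although low globin expression by neural cells has also been described. *Hba-a1* and *Hba-a2* encode the adult alpha chain, and *Hbb-bs* and *Hbb-bt*, which the table also lists as the major and minor adult beta chains, encode the adult beta chain. *Hba-x* (zeta), *Hbb-y* (epsilon y) and *Hbb-bh1* (beta h1) encode embryonic chains. *Alas2* encodes the erythroid form of the first enzyme of heme synthesis, and *Slc4a1* encodes band 3, the anion exchanger of the red cell membrane.

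The alpha-like genes lie on chromosome 11 in the order *Hba-x* (from 32276600 to 32278113), *Hba-a1* (from 32283671 to 32284489) and *Hba-a2* (from 32296488 to 32297309). The beta-like genes lie on chromosome 7, with *Hbb-bt* from 103812524 to 103813926, *Hbb-bs* from 103826523 to 103827988, *Hbb-bh2* from 103839124 to 103840521, *Hbb-bh1* from 103841638 to 103843166 and *Hbb-y* from 103851754 to 103853211. *Slc4a1* lies apart from the alpha genes on chromosome 11 (from 102348820 to 102365282) and *Alas2* on chromosome X (from 150547417 to 150570622). Positions are those of the table, for which the submitters' processing notes name mm10.

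The promoters are shown first, because they set the adult-type genes beside the embryonic ones and *Alas2*, all of which red cells use but at different stages. RefSeq promoter windows on GRCm38.p6, the assembly also called mm10, were found for 8 members, and the 150 bases before the start are printed for 7 of them, 5′ to 3′ on the strand of the gene. Capitals mark 4 motifs known from globin and red cell promoters, each searched on both strands: the box bound by Krüppel-like factors (CACCC), the box bound by NF-Y among others (CCAAT), the TATA box (TATAA) and the core of sites bound by GATA factors (GATAA). Capitals that spell none of these hold the motif on the opposite strand.
Hba-a1 (chr11:32283522-32283671, plus strand): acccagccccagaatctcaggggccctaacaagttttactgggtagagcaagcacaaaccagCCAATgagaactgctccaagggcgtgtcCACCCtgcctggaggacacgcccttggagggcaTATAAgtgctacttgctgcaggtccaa
Hba-a2 (chr11:32296342-32296491, plus strand): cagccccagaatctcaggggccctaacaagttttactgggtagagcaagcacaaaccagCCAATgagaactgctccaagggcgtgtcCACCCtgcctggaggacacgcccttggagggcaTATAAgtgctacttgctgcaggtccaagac
Hbb-bs (chr7:103827929-103828078, minus strand): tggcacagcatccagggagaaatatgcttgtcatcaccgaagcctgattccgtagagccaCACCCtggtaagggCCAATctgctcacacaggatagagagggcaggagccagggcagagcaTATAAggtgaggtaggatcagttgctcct
Hbb-bt (chr7:103813924-103814073, minus strand): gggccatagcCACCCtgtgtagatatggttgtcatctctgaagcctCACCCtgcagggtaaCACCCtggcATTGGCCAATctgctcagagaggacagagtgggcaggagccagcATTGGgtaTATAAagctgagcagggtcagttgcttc
Hba-x (chr11:32276450-32276599, plus strand): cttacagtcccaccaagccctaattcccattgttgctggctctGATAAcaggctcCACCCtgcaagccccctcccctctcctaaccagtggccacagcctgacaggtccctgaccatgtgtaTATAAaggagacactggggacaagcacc
Hbb-y (chr7:103853208-103853357, minus strand): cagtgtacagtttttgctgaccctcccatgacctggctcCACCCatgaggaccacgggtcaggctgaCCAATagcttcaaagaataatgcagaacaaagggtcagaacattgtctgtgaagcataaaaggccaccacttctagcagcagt
Alas2 (chrX:150547267-150547416, plus strand): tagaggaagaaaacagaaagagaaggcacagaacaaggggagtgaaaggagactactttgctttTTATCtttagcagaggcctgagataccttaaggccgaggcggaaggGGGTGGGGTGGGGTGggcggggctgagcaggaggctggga

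Of all 32851 RefSeq promoter windows of that length, 37.4% held CACCC on either strand, 24.5% held CCAAT, 14.2% held TATAA and 13.3% held GATAA. Each of the 4 adult-type globin windows held the CACCC box, the CCAAT box and the TATAA box on the strand of the gene. On that strand alone, 19.6% of all windows held CACCC, 13.3% held CCAAT and 9.99% held TATAA. In *Hba-a1* the CCAAT box began 88 bases before the start, the CACCC box 60 and the TATAA box 27, whereas in *Hbb-bs* the CACCC box (90 bases) lay upstream of the CCAAT box (76 bases). *Hbb-bt* held 3 CACCC boxes on the strand of the gene, and its opposite strand held CCAAT at 2 places, one of which adjoins the CCAAT box of the gene's own strand. The window of *Hba-x* held GATAA 107 bases before the start but no CCAAT, and that of *Hbb-y* held CACCC and CCAAT but not TATAA in these letters. In *Alas2* the CACCC box was on the opposite strand, 3 times in a row, with GATAA upstream of it, also on the opposite strand. The windows of *Hba-a1* and *Hba-a2* shared an unbroken run of 147 bases, while *Hbb-bs* and *Hbb-bt* shared at most 14. A motif match describes these letters and does not show binding.

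The copies of each adult-type gene are almost the same sequence, which bears on how far their counts can be told apart. The coding sequences of *Hba-a1* and *Hba-a2* in GENCODE release M21 (429 bases each) differ at 1 base, C381T, and those of *Hbb-bs* and *Hbb-bt* (444 bases each) differ at 1 base, C417T, with positions counted from 1 at the first base of the start codon and the base of the first-named gene first. The 41 coding bases around each difference are given on the strand of the gene, with the differing base in capitals.
Hba-a1 (chr11:32284323-32284363, plus strand): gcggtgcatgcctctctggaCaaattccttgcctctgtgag
Hba-a2 (chr11:32297140-32297180, plus strand): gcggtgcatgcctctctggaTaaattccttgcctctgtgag
Hbb-bs (chr7:103826672-103826712, minus strand): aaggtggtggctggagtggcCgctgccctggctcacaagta
Hbb-bt (chr7:103812663-103812703, minus strand): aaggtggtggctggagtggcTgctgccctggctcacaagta

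The longest stretch shared without a difference was 415 bases for the transcripts of the alpha copies and 430 bases for those of the beta copies, against reads of 150 bases. Reads inside such a stretch match both copies, and how the authors counted them is not given in the sources used here, so the split between copies is uncertain and sums over copies are the firmer values. The embryonic genes are clearly distinct from the adult ones: the coding sequence of *Hba-x* was 65.5% identical to that of *Hba-a1*, with a longest shared run of 18 bases, and that of *Hbb-y* was 75.2% identical to that of *Hbb-bs*, with a longest shared run of 22 bases.

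Between 31837922 and 40896541 reads were recovered per library from the normalized counts. *Khdrbs1*, which encodes Sam68, had 1.86% of its wild-type level in dKO cortex, and *Khdrbs3*, which encodes SLM2, had 48.1% over the whole gene, with no overlap between the genotypes for either. Markers of the labelled tissue were present in every library: *Emx1*, a transcription factor of the dorsal forebrain, lay between 1125 and 1739.8 normalized counts, *Neurod6* of excitatory cortical neurons between 45180.0 and 71754, and the neuronal tubulin *Tubb3* between 137245 and 166759. Cortex markers lay higher on average in dKO libraries. For *Emx1*, *Tbr1*, *Neurod6*, *Bcl11b*, *Fezf2* and *Tubb3*, 6 of 6 fold changes were above 0 (0.54 for *Emx1*), 4 had an unadjusted p under 0.05 and 0 an adjusted p under 0.05 by limma, and for 3 the genotypes did not overlap. Their sum ran from 200454 to 215933 normalized counts in WT and from 222489 to 254569 in dKO libraries (log2 difference 0.20, exact two-sided permutation test, p = 0.1, which 3 against 3 cannot go below), and what this shift contributes to the globin values was not tested.

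The 4 adult-type globins were abundant in every library. *Hba-a1* had 21947, 20303 and 26401 normalized counts in WT1 to WT3 and 21947, 22966 and 28042 in dKO1 to dKO3. *Hba-a2* had 6366, 5642 and 7855 in the WT libraries and 6315, 7034 and 9658 in the dKO libraries. For both alpha genes dKO3 was highest, WT3 second and WT2 lowest, and the genotypes overlapped. The log2 fold change (dKO minus WT) was 0.09 for *Hba-a1* (standard error 0.12, 95% interval from -0.17 to 0.35, adjusted p = 0.788 by limma) and 0.20 for *Hba-a2* (standard error 0.17, interval from -0.17 to 0.57, adjusted p = 0.651 by limma).

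The beta genes shared dKO3 as the highest library with the alpha genes, but part of the order below it differed. WT3 was second for *Hbb-bs*, whereas for *Hbb-bt* it lay below WT2 and dKO2. *Hbb-bs* had 20392, 22536 and 27319.8 normalized counts in WT1 to WT3 and 21521, 26381 and 33609 in dKO1 to dKO3. *Hbb-bt* had 4771, 5571 and 5534 in the WT libraries and 5028, 5596 and 8719.8 in the dKO libraries. WT1 was lowest and dKO3 highest for both, and for *Hbb-bt* the other 5 libraries lay close together below dKO3. The log2 fold change was 0.20 for *Hbb-bs* (standard error 0.16, interval from -0.16 to 0.56, adjusted p = 0.645 by limma) and 0.25 for *Hbb-bt* (standard error 0.18, interval from -0.17 to 0.66, adjusted p = 0.621 by limma). In bulk RNA, fewer red cells and less globin RNA per red cell cannot be told apart.

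*Alas2* and *Slc4a1* were detected at far lower levels. *Alas2* had 514, 414 and 602 normalized counts in WT1 to WT3 and 532, 551 and 658 in dKO1 to dKO3 and ordered the libraries as *Hba-a1* did. *Slc4a1* had 79.9, 55.9 and 77.1 in the WT libraries and 85.3, 58.6 and 111 in the dKO libraries, which rest on 52 to 96 reads a library. Both were highest in dKO3 and lowest in WT2, and dKO2 was the second lowest for *Slc4a1*, unlike for the globins. The log2 fold change was 0.20 for *Alas2* (standard error 0.15, interval from -0.14 to 0.53, adjusted p = 0.63 by limma) and 0.23 for *Slc4a1* (standard error 0.28, interval from -0.40 to 0.86, adjusted p = 0.773 by limma).

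**Figure D1:**
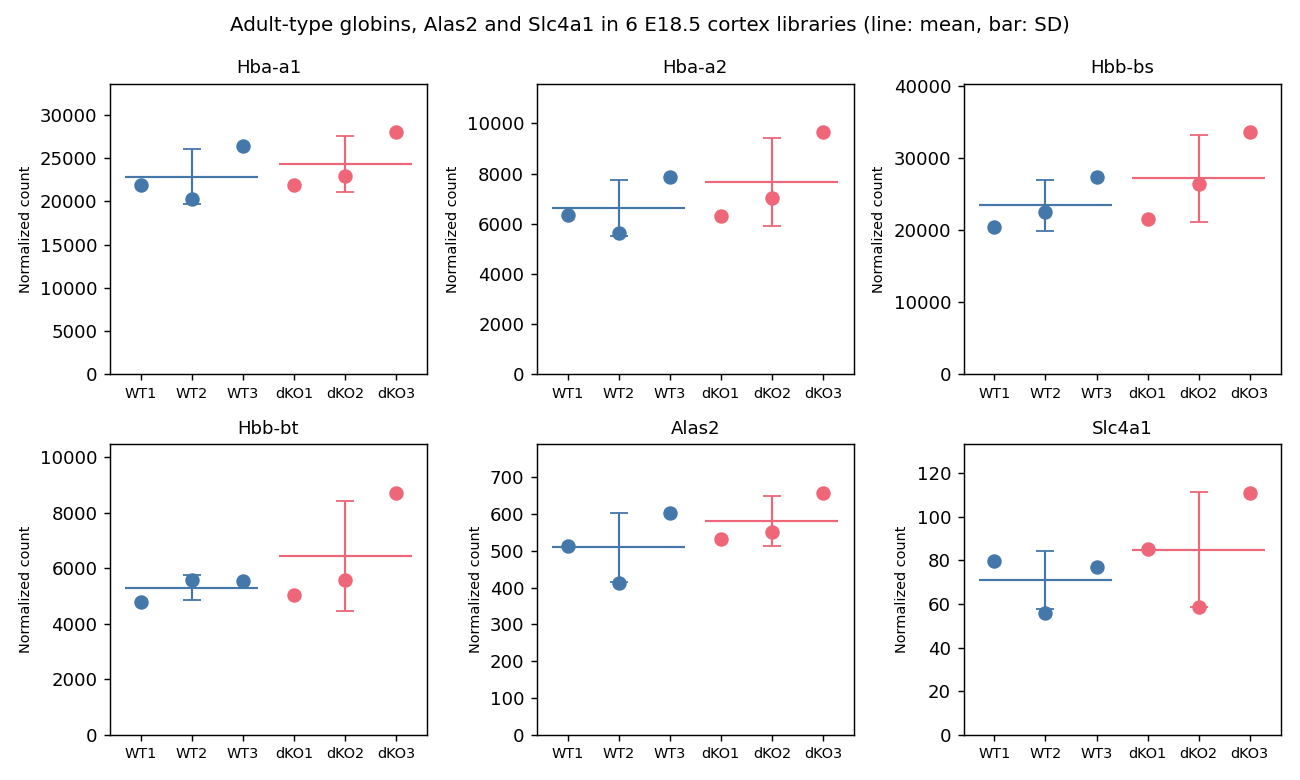
Normalized counts (y axis, from 0) of the 6 tested members in each of the 3 WT (blue) and 3 dKO (red) libraries; horizontal lines are group means and vertical bars the SD (n = 3). In all 6 panels dKO3 is the highest library and the genotypes overlap.

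Of the 10 members, 6 had a mean of at least 10 normalized counts over the libraries and entered the test, and 4 (*Hba-x*, *Hbb-y*, *Hbb-bh1* and *Hbb-bh2*) did not. By limma, 0 of these 6 had an adjusted p under 0.05, where 0.1% of the 18970 features tested did. At an unadjusted p under 0.05 limma, edgeR and DESeq2 each gave 0 members, and limma gave 11.5% of all features. The genotypes overlapped for all 6, whereas they did not overlap for 16.4% of all features. All 6 fold changes were above 0, with a single library, dKO3, the highest for 6 of 6 members. Without dKO3 the fold change of *Hba-a1* turned to -0.02, and those of *Hba-a2*, *Hbb-bs*, *Hbb-bt*, *Alas2* and *Slc4a1* came to 0.02, 0.04, 0.01, 0.10 and 0.01, nearer to 0 than with it.

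Blood content was compared library by library as the sum of all Hba- and Hbb- features. The sum was 53476, 54052 and 67117 normalized counts in WT1 to WT3 and 54818, 61981 and 80035 in dKO1 to dKO3. From low to high the order was WT1, WT2, dKO1, dKO2, WT3 and dKO3, so the genotypes were interleaved, and the highest library was 1.5-fold over the lowest. The WT mean was 58215 ± 7715 and the dKO mean 65611 ± 12995 (SD, n = 3 each), which differed by 0.16 on the log2 scale (exact two-sided permutation test, p = 0.5, where 0.1 is the smallest value that 3 against 3 allow). dKO3 stood 1.37-fold over the mean of the other 5 libraries, and without it the dKO mean was 58399, with a log2 difference from WT of 0.01.

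As a share of all recovered reads, globins made up 0.1507%, 0.1526% and 0.1931% in WT1 to WT3 and 0.1477%, 0.1703% and 0.2167% in dKO1 to dKO3. The 95% Wilson intervals of WT1 (0.1495% to 0.1520%) and WT2 (0.1513% to 0.1540%) overlapped each other, and no other pair of libraries had overlapping intervals. If mates of a pair were counted one by one, intervals on pairs are wider, and those of dKO1 (0.1460% to 0.1494%) and WT1 (0.1490% to 0.1525%) also overlapped. On this scale dKO1 rather than WT1 was the lowest. Intervals cover counting error only. With the share of reads in place of normalized counts, the log2 difference between the genotypes was 0.10 (exact two-sided permutation test, p = 0.7).

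**Figure D2:**
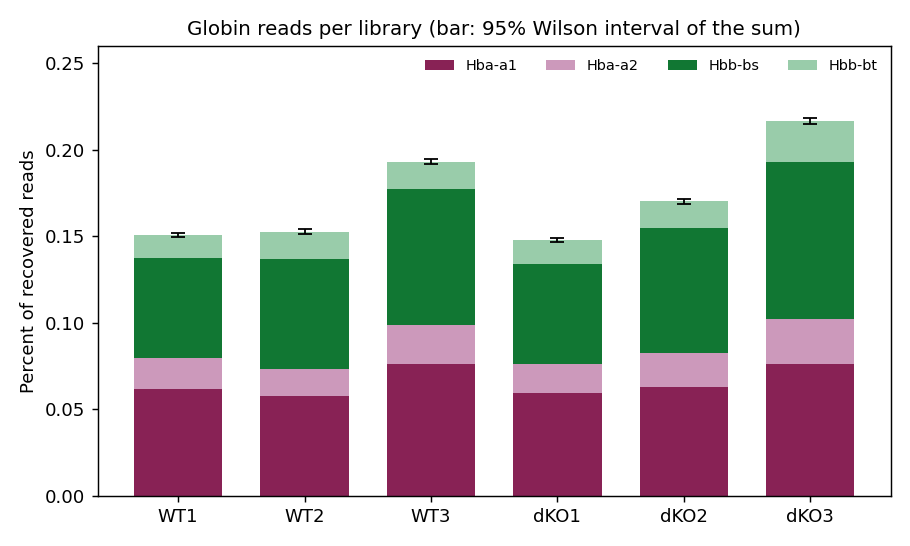
Percent of the recovered reads of each library (x axis) on the 4 adult-type globin genes, stacked by gene; black bars are the 95% Wilson interval of the globin sum. The totals run from 0.1477% in dKO1 to 0.2167% in dKO3, with WT and dKO libraries interleaved.

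Spread across the 6 libraries was not unusual among genes. The SD of the log2 values was 0.18 for *Hba-a1*, 0.28 for *Hba-a2*, 0.27 for *Hbb-bs*, 0.31 for *Hbb-bt*, 0.23 for *Alas2* and 0.36 for *Slc4a1*, against a median of 0.21 over all tested features. Between 42.2% (*Hba-a1*) and 72.5% (*Slc4a1*) of the tested features had a smaller SD. By mean normalized count *Hbb-bs* was 128th, *Hba-a1* 148th, *Hba-a2* 898th, *Hbb-bt* 1153rd, *Alas2* 8235th and *Slc4a1* 13685th among the tested features.

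Per kilobase of 1 coding transcript of each gene in GENCODE release M21, levels could be compared between genes. *Hbb-bs* had a mean of 40276 normalized counts per kilobase over the 6 libraries and *Hba-a1* had 33764. *Hba-a2* followed with 12897 and *Hbb-bt* with 8349.7. The ranges of *Hbb-bs* (32472 to 53518) and *Hba-a1* (29045 to 40117) overlapped across libraries, as did those of *Hba-a2* (10185 to 17433) and *Hbb-bt* (6786 to 12404), although the first of each pair was higher within 6 of 6 libraries. *Alas2* (mean 268 per kilobase) and *Slc4a1* (17.2) lay well below with ranges that touched no neighbour, and *Hbb-y* (3.1), *Hba-x* (2.48) and *Hbb-bh1* (0.477) lay lowest among detected members.

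Embryonic globins were close to undetected. *Hba-x* had 0 reads in the WT libraries and 8, 0 and 4 in dKO1 to dKO3. *Hbb-y* had 0, 0 and 6 reads in WT1 to WT3 and 0, 4 and 2 in dKO1 to dKO3. *Hbb-bh1* had 2 reads in WT3 only, and *Hbb-bh2*, a further beta-like gene of the cluster, was at 0 in all 6 libraries. Reads on an embryonic gene were thus found in 1 of 3 WT libraries and 3 of 3 dKO libraries, and no embryonic gene was detected in every dKO library.

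**Figure D3:**
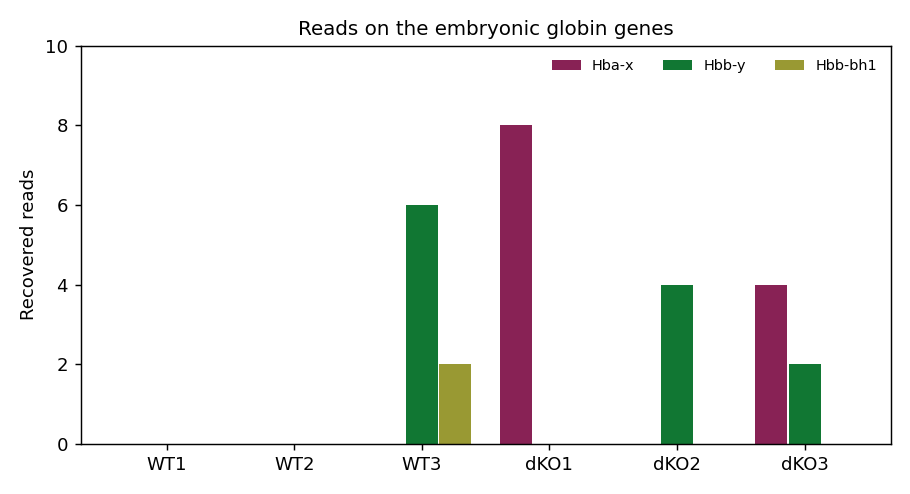
Recovered reads (y axis) on the embryonic globin genes *Hba-x*, *Hbb-y* and *Hbb-bh1* in each library (x axis). WT1 and WT2 have 0 reads, and no gene has more than 8 reads in any library.

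Set against the adult-type sum of the same library, so that the amount of blood cancels, embryonic globins came to 0, 0 and 10.5 per 100000 adult-type counts in WT1 to WT3 and to 13.2, 6.75 and 8.7 in dKO1 to dKO3. The dKO1 library was highest and WT3 second, between the dKO libraries. The mean was 3.48 ± 6.03 in WT and 9.56 ± 3.33 in dKO cortex (SD, n = 3 each; exact two-sided permutation test, p = 0.3). WT1 and WT2 hold 0 embryonic reads, which allows up to 5.34 and 5.96 per 100000 globin reads at the limit of 3 reads, with exact 95% intervals up to 6.56 and 7.33. The intervals of dKO1 (5.72 to 26.1), dKO2 (1.84 to 17.3) and dKO3 (3.19 to 18.9) each overlapped those of WT1 and WT2, that of dKO1 by the least. Overlap of intervals does not show that libraries are alike, and differences between single libraries were not tested. With the alpha-like genes alone (*Hba-x* against *Hba-a1* and *Hba-a2*) the difference was 12.66 per 100000 in place of 6.08 (exact two-sided permutation test, p = 0.4). Over all 6 libraries, 26 embryonic reads stood against 371759 adult-type reads, 6.99 per 100000 (exact 95% interval 4.57 to 10.2). All 6 embryonic values above 0 were even numbers of reads, as were between 67% and 70.8% of all features with 1 to 20 reads in a library, and if mates of a pair were counted one by one these intervals are too narrow.

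The balance of the chains was compared within each library. The ratio of beta-like to alpha-like counts was 0.889, 1.08 and 0.959 in WT1 to WT3 and 0.939, 1.07 and 1.12 in dKO1 to dKO3. WT1 was lowest and dKO3 highest, with the other 4 libraries mixed between the genotypes. The means were 0.977 ± 0.0985 and 1.04 ± 0.094 (SD, n = 3 each), a log2 difference of 0.09 (exact two-sided permutation test, p = 0.5).

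The ratio of *Hba-a1* to *Hba-a2* was 3.45, 3.6 and 3.36 in WT1 to WT3 and 3.48, 3.27 and 2.9 in dKO1 to dKO3 (exact two-sided permutation test, p = 0.3). That of *Hbb-bs* to *Hbb-bt* was 4.27, 4.04 and 4.94 in the WT libraries and 4.28, 4.71 and 3.85 in the dKO libraries (exact two-sided permutation test, p = 0.8). dKO3, the library with the most globin, had the lowest value of both ratios, and reads that match both copies limit what either ratio says of a single copy.

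Red cell genes were also set against globin. *Alas2* came to 960.4, 765 and 897 per 100000 globin counts in WT1 to WT3 and to 970.1, 889 and 822 in dKO1 to dKO3 (log2 difference 0.03, exact two-sided permutation test, p = 0.8). *Slc4a1* came to 149, 103 and 115 in the WT libraries and to 156, 94.5 and 139 in the dKO libraries (log2 difference 0.07, exact two-sided permutation test, p = 0.9). Both were highest in dKO1, and the lowest was WT2 for *Alas2* and dKO2 for *Slc4a1*. The highest library was 1.27-fold over the lowest for *Alas2* and 1.65-fold for *Slc4a1*, against 1.5-fold for the globin sum itself. In all 9 such quantities were compared between the genotypes, each with a Benjamini-Hochberg adjusted p of 0.9 from the exact permutation tests.

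**Figure D4:**
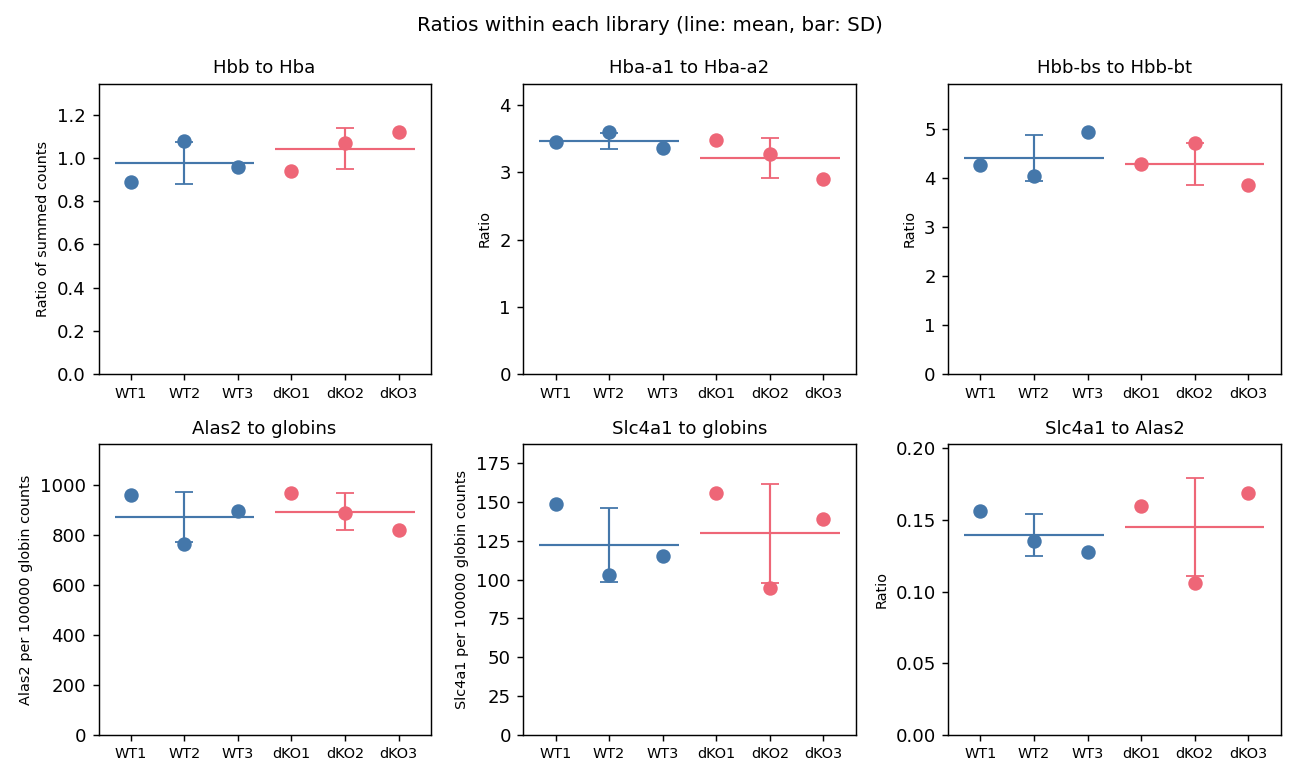
Ratios within each WT (blue) and dKO (red) library, each y axis from 0; horizontal lines are group means and vertical bars the SD (n = 3). The genotypes overlap in all 6 panels.

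Other genes of red cell biology were described from 7 lists with 81 symbols (other globins, heme synthesis and iron uptake, red cell membrane, red cell cytoplasm, erythroid regulators, regulators of globin switching, and heme clearance), of which 80 have a feature and 63 were tested. By limma 0 had an adjusted p under 0.05, the smallest being 0.283 (*Sptb*), and edgeR and DESeq2 also gave 0. At an unadjusted p under 0.05 limma gave 9 (5 higher and 4 lower in dKO cortex), 14.3% against the 11.5% of all features, edgeR gave 10 and DESeq2 gave 9. The genotypes did not overlap for 14 (22.2%, against 16.4% of all features), 9 with dKO above and 5 below. The median log2 fold change was 0.01, and that of all tested features was 0.00. Many of these genes are also expressed by neural and other cells, so their levels in cortex are not a measure of red cells.

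Among the 15 tested genes of heme synthesis and iron uptake, the most abundant were *Fam210b* (log2 fold change 0.26), *Tmem14c* (0.05), *Abcb10* (0.08) and *Alad* (-0.18), and the list's median was 0.05. *Urod*, a heme synthesis enzyme, had 865, 963 and 897 normalized counts in WT1 to WT3 and 1122, 1045 and 1211 in dKO1 to dKO3, with no overlap (log2 fold change 0.31, standard error 0.10, adjusted p = 0.337 by limma). *Fech*, which inserts the iron in the last step, lay the other way, with 1010.1, 1045 and 1150.2 in the WT libraries and 859, 769 and 900.0 in the dKO libraries (-0.34, standard error 0.10, adjusted p = 0.323 by limma). *Cpox* (-0.20) and the transferrin receptor *Tfrc* (0.56) also had genotypes that did not overlap, with adjusted p = 0.575 and 0.357 by limma. Enzymes of the same pathway thus lay on both sides of 0, and none passed the adjusted test. The housekeeping form *Alas1* had a log2 fold change of 0.15, beside 0.20 for *Alas2*.

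In the red cell membrane list 10 of 16 genes were tested, with a median of -0.01. *Add2* (0.04), *Epb41* (0.15), *Dmtn* (-0.33) and *Ank1* (0.21), components of the membrane skeleton, were the most abundant. The spectrin gene *Sptb* had 855, 682 and 871 normalized counts in WT1 to WT3 and 513, 628 and 579.9 in dKO1 to dKO3, with no overlap (log2 fold change -0.48, standard error 0.13, adjusted p = 0.283 by limma). *Epb42* and *Rhag* were below the filter, at 11.5 normalized counts or less, and *Icam4* was at 0 in all libraries.

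In the cytoplasm list 8 of 12 genes were tested, with a median of -0.03. *Prdx2* (0.20), *Mgst3* (-0.10), *Bpgm* (-0.12) and *Car2* (-0.27) were the most abundant, and *Car1*, a carbonic anhydrase of mature red cells, had reads in 1 library only. *Ahsp*, the alpha-globin chaperone, has no feature in the table under that symbol. Among 7 tested erythroid regulators the median was -0.01. The sum of all 10 on the list, made up mostly of *Ldb1* and *Cited2*, lay between 11669 and 13033 normalized counts in WT libraries. In dKO libraries it lay between 13206 and 14497, without overlap (log2 difference 0.16, exact two-sided permutation test, p = 0.1). *Ldb1* (0.17) and *Tal1* (-0.47) had genotypes that did not overlap and lay on opposite sides of 0, *Cited2* (0.17), *Lmo2* (0.07) and *Zfpm1* (-0.01) overlapped, and the erythroid factor *Gata1* was below the filter at 0 to 2.32 normalized counts.

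The regulators of globin switching were all 10 tested, with a median of 0.04. *Bcl11a*, known for silencing embryonic and fetal globins and also expressed in cortical neurons, had 7425, 7282 and 7007 normalized counts in WT1 to WT3 and 8331, 7401 and 6908 in dKO1 to dKO3 (log2 fold change 0.06). *Sox6* (0.28, adjusted p = 0.394 by limma) and *Zbtb7a* (0.18, adjusted p = 0.575 by limma) were above WT in every dKO library, and *Hbs1l* (0.01) and *Nr2c2* (0.10) overlapped. In the heme clearance list 10 of 12 genes were tested, with a median of 0.05. The ferritin genes *Fth1* and *Ftl1* each had a fold change of 0.09, *Slc48a1* had 0.08 and *Lrp1* had -0.11, whereas the iron exporter *Slc40a1* lay below WT in every dKO library (-0.49, adjusted p = 0.331 by limma).

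Of the other globins, *Cygb* (cytoglobin) had 729, 865 and 1008 normalized counts in WT1 to WT3 and 956, 871 and 982 in dKO1 to dKO3 (log2 fold change 0.12). *Ngb* (neuroglobin) had 43.7, 15 and 47.3 in the WT libraries and 9.08, 27.2 and 9.28 in the dKO libraries (-1.19, adjusted p = 0.455 by limma), with overlap. *Hbq1b*, a theta globin of the alpha cluster, had a fold change of -0.15, and its copy *Hbq1a* had 15.2, 9.67 and 14 against 3.63, 6.27 and 8.12, below the filter and without overlap.

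**Figure D5:**
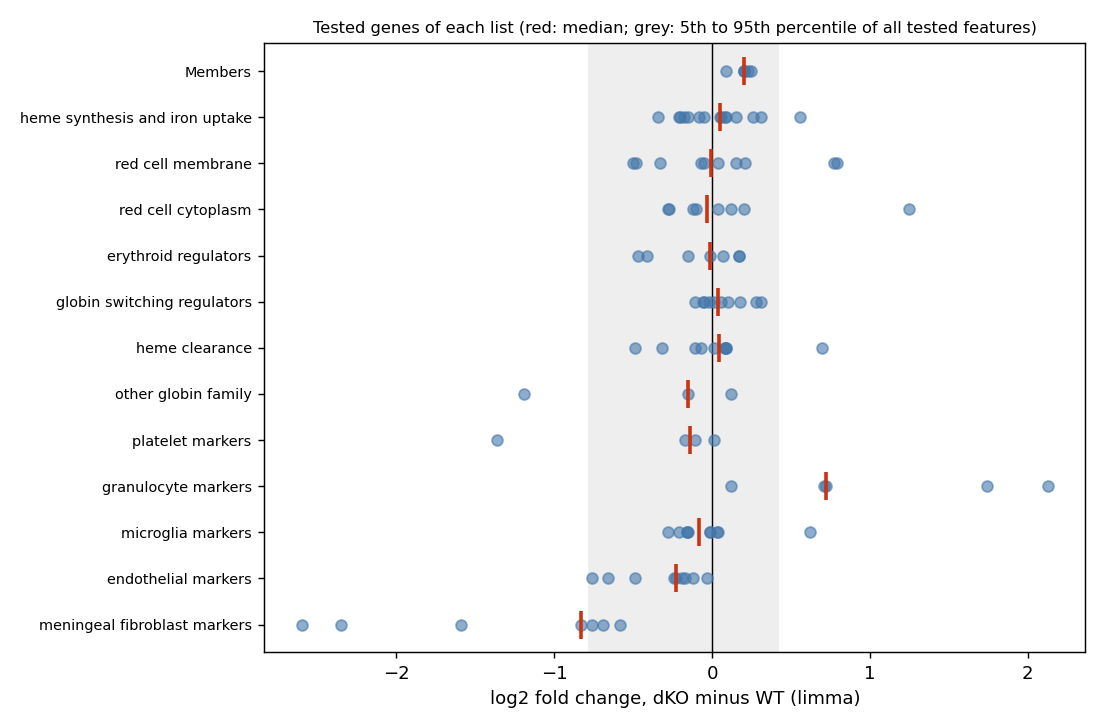
Log2 fold changes (dKO minus WT, limma, x axis) of the tested genes of the members and of 12 lists (y axis); each point is a gene, red marks are list medians, and grey spans the 5th to 95th percentile of all tested features, from -0.78 to 0.42. The 6 members lie between 0.09 and 0.25, inside the grey band, and the red cell lists straddle 0.

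Markers of other cells that come with blood or vessels were read beside the globin sum. Of 10 granulocyte genes 5 were tested, all with a fold change above 0 (median 0.72) and 0 with an adjusted p under 0.05 by limma. Of these, 1 (*S100a9*) had an unadjusted p under 0.05, where limma gave 11.5% of all features. The sum of all 10 ran from 161 to 257 normalized counts in WT and from 199.7 to 537 in dKO libraries (exact two-sided permutation test, p = 0.2). It was highest in dKO3, the library with the most globin. *Ltf* alone had 7.61, 14 and 21 in WT1 to WT3 and 10.9, 100.4 and 195 in dKO1 to dKO3. *S100a9* had 5.71, 2.15 and 12.3 in the WT libraries and 9.08, 16.7 and 58 in the dKO libraries. *Lcn2* had 35.2, 23.6 and 50.8 in the WT libraries and 24.5, 65.9 and 119 in the dKO libraries. *Csf3r* did not follow this order, with 39.9, 19.3 and 34.2 in the WT libraries and 53.5, 69 and 32.5 in the dKO libraries. For *Csf3r*, dKO3 lay below WT1 and WT3. *Prtn3*, the most abundant, differed little, with 68.5, 102 and 110.5 in the WT libraries and 94.4, 93.1 and 114 in the dKO libraries. The genotypes overlapped for all 5 tested genes. *Elane* was at 0 in all libraries, and *S100a8* stayed between 1.82 and 12.3. Of 11 platelet genes 4 were tested. All 11 summed to between 776 and 886 in WT and between 775 and 872 in dKO libraries, of which *Gp1bb* alone made up between 644 and 703. Lymphocyte genes summed to 21 or less.

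Endothelial markers (9 of 10 tested, 9 fold changes below 0, median -0.23) summed to between 5345 and 6879 normalized counts in WT and between 5008 and 5771 in dKO libraries, with dKO3 the lowest. Microglia markers (10 of 10 tested, median -0.08) summed to between 3177 and 4632 in WT and between 3404 and 3836 in dKO libraries. Meningeal fibroblast markers (7 of 7 tested, 7 below 0, median -0.83) summed to 802, 385 and 1411 in WT1 to WT3 and to 388, 447 and 379 in dKO1 to dKO3, and choroid plexus markers to between 32.7 and 142. WT3, the WT library with the most globin, was the highest of all 6 for microglia, endothelial, meningeal and choroid plexus markers, and dKO3, with more globin still, was the lowest for endothelial markers (5008) and for meningeal markers (379, close to 385 in WT2 and 388 in dKO1). What these cells contribute to the globin values was not tested.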

How the data were processed

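PolyA+ RNA-seq libraries (stranded, 150 bp paired-end) of E18.5 cortex were assigned to WT or dKO from the labels. The submitters' processing notes name STAR 2.7.5a, SAMtools, Picard, FastQC, DESeq2 and mm10; how reads that match several genes were counted is not given in the sources used here. The authors deposited a signal for each gene, a count divided by the size factor of its library. In each library 100.0% of positive values were whole multiples (within 0.01 read) of the value of 1 read, from which reads were recovered.

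Features with a mean normalized count of 10 or more were tested with limma 3.58.1 (trend and robust, R 4.3.3) on log2 values after adding 1, which makes fold changes of low genes smaller, with Benjamini-Hochberg adjustment over all of them. Sums and ratios were tested as log2 values by exact two-sided permutation, except the embryonic ratio, which was tested on the linear scale since WT1 and WT2 are at 0. The fit was tested on simulated data. Alternatives were other pseudocounts, filters and normalizations, limma without trend and robust, edgeR 4.0.16 and DESeq2 1.42.0 on recovered reads, the replicate block and the omission of single libraries. Transcripts came from GENCODE release M21 and promoters from RefSeq.

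Named were all members, of each red cell list the 4 with the highest mean and up to 4 whose genotypes did not overlap at a mean of 50 or more, and the 10 profiles nearest to summed globins; any other gene was named after its values were seen. Members and lists were chosen with earlier results of these data known. A few genes are not reported on here.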

Additional observations from a re-analysis of the deposited data

How the results depend on the processing

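Of 352 values recomputed under alternatives, 345 kept their direction and their side of the threshold. Many of these values belong to red cell genes named because their genotypes did not overlap, such as *Urod*, *Fech*, *Sptb* and *Slc40a1*. The direction of such genes cannot turn when a library is omitted, so the 345 are no measure of how stable the globin values are. The counts of members and of other erythroid genes with an adjusted p under 0.05 were 0 under all alternatives, edgeR and DESeq2 included. When single libraries were omitted, the log2 difference ranged from 0.01 to 0.28 for summed globins, from 0.03 to 0.17 for beta-like to alpha-like globins, from -0.06 to 0.11 for *Alas2* to globins, from -0.08 to 0.28 for *Slc4a1* to globins, from -0.05 to 0.12 for both together and from -0.02 to 0.20 for *Hba-a1*, and the embryonic difference ranged from 4.24 to 9.56 per 100000. Signs reversed without WT2 for *Alas2*, *Slc4a1* and both to globins (-0.06, -0.05 and -0.05), without dKO1 for the same (-0.03, -0.08 and -0.03), and without dKO3 for *Hba-a1* (-0.02); by construction these rest on fewer samples. The embryonic difference was largest without WT3 (9.56, exact permutation test, p = 0.1, the smallest value possible).

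The labels do not say whether same-numbered libraries belong together. Their deviations from the group means correlated at 0.098, -0.228 and -0.079, and those of differently numbered libraries at -0.138 to 0.205. With 3 libraries a group, these values do not settle whether libraries were paired. With the replicate block, 0 members had an adjusted p under 0.05 by limma and 2 an unadjusted p under 0.05 (0 without it). The share of all features with an unadjusted p under 0.05 is known here only without the block (11.5%), so nothing is concluded from these 2. The log2 difference of summed globins with the block was 0.16. Depth limits the embryonic globins, with at most 8 reads per gene and library.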

Other observations

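Outside the members, the 10 genes whose centred log2 profile over the 6 libraries lay nearest to that of summed globins were *Fkbp7*, *1700096K18Rik*, *Tuba1c*, *Stil*, *Phf19*, *Plk4*, *Usp50*, *Lmbr1l*, *Isca2* and *Fam162a*, at root mean square distances from 0.062 to 0.088. *Tuba1c*, a tubulin gene, had 4511, 4473 and 5031 normalized counts in WT1 to WT3 and 4803, 5319.7 and 6295 in dKO1 to dKO3. *Alas2* lay at a distance of 0.120, with 96 of 14597 other genes nearer, and *Slc4a1* at 0.268, with 7432 nearer. With 6 libraries, a near profile is a description of these values.

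A few red cell genes at low counts were picked out after their values were seen. *Ermap* had 15.2, 19.3 and 12.3 normalized counts in WT1 to WT3 and 22.7, 33.5 and 25.5 in dKO1 to dKO3 (log2 fold change 0.77, adjusted p = 0.484 by limma), and *Trim10* had 3.8, 10.7 and 8.77 against 23.6, 11.5 and 23.2 (1.25, adjusted p = 0.43 by limma). In both, every dKO library lay above every WT library; the genotypes did not overlap, in one direction or the other, for 16.4% of all tested features. *Klf1*, the erythroid regulator that binds CACCC boxes, overlapped, with 11.4, 8.59 and 23.7 against 14.5, 8.37 and 13.9.

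Genes beside the alpha cluster on chromosome 11 were also chosen after values were seen. *Snrnp25* had 465, 566 and 508 normalized counts in WT1 to WT3 and 480.1, 531 and 599.6 in dKO1 to dKO3 (log2 fold change 0.06, standard error 0.13, adjusted p = 0.864 by limma). It was lowest in WT1 and highest in dKO3 as the globin sum was. The libraries between them were ordered otherwise, with WT2 second highest for *Snrnp25* and second lowest for the globin sum. *Nprl3*, whose introns hold alpha-globin enhancers, had 553, 625 and 455 normalized counts in WT1 to WT3 and 476, 479 and 517 in dKO1 to dKO3 (log2 fold change -0.14, standard error 0.13, adjusted p = 0.702 by limma), and *Mpg* and *Rhbdf1* had fold changes of 0.07 and -0.10.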
